A study of Mus musculus with 23 samples.

Results

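The genes of oxidative phosphorylation were followed in brain microglia of young and old female C57BL/6 mice, before and after microglia had been removed and regrown. Members were chosen by symbol: the Nduf genes, Sdha to Sdhd, the Uqcr genes, Cox4 to Cox8, the Atp5 genes, Cyc1, Cycs, and the messenger RNAs of the mitochondrial genome, leaving out 7 names that hold "-ps". The rule found 110 of the 53090 rows of the deposited tables. Of these, 13 are mitochondrial genes and 97 are rows of 95 nuclear symbols. Uqcrc1 and Ndufs3 are each deposited in 2 rows with identical counts. Each was counted once as a member and in the tests, whereas the summed nuclear shares and ratios below hold both rows. The nuclear set holds 36 subunits of complex I, 8 complex I assembly factors, 4 subunits of complex II, 9 of complex III, 20 of complex IV (Ndufa4 and Ndufa4l2 among them), 15 of complex V, cytochrome c (Cycs), and Atp5s and Atp5sl, whose names place them beside complex V. A filter on low counts kept all 13 mitochondrial genes and 91 nuclear symbols; Cox8b, Cox8c, Cox7b2 and Ndufa4l2 did not pass.

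The 23 libraries were 7 of young, 3 of young repopulated, 5 of old and 8 of old repopulated mice. Repopulated mice had eaten chow with 1200 ppm of PLX5622, an inhibitor of CSF1R, the receptor microglia need to survive, and new microglia had formed afterwards. Control mice ate the same chow without the drug. Ages, treatment length and repopulation time are not given in the sources used here, and the protocol texts describe both cultured CD11b-selected cells and sorted microglia, of which the RNA text names the sorted cells.

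Oxidative phosphorylation moves electrons from NADH (complex I) and succinate (complex II) through complex III and cytochrome c to oxygen at complex IV, and complex V makes ATP from the proton gradient this builds. Complexes I, III, IV and V join subunits made from nuclear genes with a few made inside the mitochondrion, while complex II is entirely nuclear. Resting microglia are known to rely on this pathway, and activated microglia are known to shift towards glycolysis.

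How the mitochondrial messengers can be counted depends on a stretch of nuclear DNA that copies them. In GENCODE M21 (mouse build GRCm38), 7 unprocessed pseudogenes between positions 24611535 and 24616197 of chromosome 1, all on the minus strand, match 7 of the 13 mitochondrial messengers over 200 bases or more. The copies Gm10925 of mt-Atp6, Gm28661 of mt-Co2, Gm28437 of mt-Co3, Gm28439 of mt-Nd4 and Gm10222 of mt-Nd4l are identical over their aligned lengths of 678, 681, 783, 876 and 294 bases. The copies of mt-Co1 and mt-Nd3 differ by 1 base each, A1066T over 483 bases and T3C over 345 bases, with positions counted from the 5′ end of the mitochondrial gene and the gene's base given before the copy's. The lines below, from the reference transcripts, show these sites, with the differing base in capitals, to let a reader see how little separates the pairs.
mt-Co1: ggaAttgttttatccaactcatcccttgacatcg
Gm29216: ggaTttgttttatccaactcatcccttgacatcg
mt-Nd3: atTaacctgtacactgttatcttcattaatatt
Gm28438: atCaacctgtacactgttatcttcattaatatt
mt-Nd1, mt-Nd2, mt-Nd5, mt-Nd6, mt-Cytb and mt-Atp8 had no such annotated copy.

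The 77 nuclear members whose gene version is in GENCODE M21 sit on 19 chromosomes, and promoters of such genes are known targets of the factors NRF1, the ETS family, YY1 and ESRRA. RefSeq promoter windows (GRCm38.p6, 250 bases before to 50 after the start site) were matched for 75 of the 95 nuclear symbols and searched on both strands. The palindromic NRF1 motif was in a window of 7 members (9.33%, against 1.07% of all 27025 genes with a window). The YY1 motif AAGATGGC was in a window of 10 members (13.3%, against 3.19%). The 27025 genes were not limited to those tested here. The ETS motif CCGGAAGT was in a window of 5 members (6.67%, against 4.31%) and the ESRRA motif TCAAGGTCA of 2 (2.67%, against 0.466%). Overlaps between motifs were not removed, and a match is a description of letters, not of binding. The YY1 match of Atp5j was the only one upstream of the start site, and the other YY1 matches lay 10 to 38 bases after it. The stretches below are upstream of the start site, 5′ to 3′ on the strand of the gene, with the motif in capitals, and show 1 match for each factor.
Atp5g2, NRF1, chr15:102671060-102671109, minus strand: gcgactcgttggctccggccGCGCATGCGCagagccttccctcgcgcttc
Atp5j, YY1, chr16:84835037-84835084, minus strand: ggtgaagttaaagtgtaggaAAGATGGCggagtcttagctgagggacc
Uqcr11, ETS, chr10:80406860-80406907, minus strand: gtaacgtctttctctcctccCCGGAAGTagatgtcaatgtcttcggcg
Atp5g3, ESRRA on the opposite strand, chr2:73911350-73911398, minus strand: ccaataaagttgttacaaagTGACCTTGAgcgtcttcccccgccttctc

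Library totals were 43.66 M to 58.19 M counts (M, mega). Library numbers in the sample titles fall into 1 to 11 (3 young, 2 old and 5 old repopulated) and 12 to 24 (4 young, 3 young repopulated, 3 old and 3 old repopulated); the labels do not say what the numbers mark. The ribosomal RNA gene's share of counts was 0.644 to 3.04% in numbers 1 to 11 and 0.248 to 0.879% in numbers 12 to 24. For this reason all 6 comparisons were also made within numbers 12 to 24, and the 3 without young repopulated mice within numbers 1 to 11. Inside each range the numbers of a group form a block of their own, so group and number order cannot be told apart there. CPM are counts per M counts of the library, M as above. Those of single members carry TMM factors, and the marker sums given here do not. Microglial markers (8 of 8 present) summed to 24187 to 30253 CPM in young, 21521 to 24901 in young repopulated, 9700 to 25465 in old and 9691 to 28186 in old repopulated libraries. Monocyte and neutrophil markers (10 of 10 present, none at 0) summed to 35.7 to 279.9, 127 to 383, 257 to 2066 and 154 to 2702 CPM in the same order, and markers of border-associated macrophages (6 of 6 present) to 56.6 to 195, 271 to 378, 177 to 812 and 68.7 to 1141 CPM. Neuronal markers summed to 0.537 to 5.05 CPM, with Syt1, Tubb3, Stmn2, Slc17a7 and Gad1 at 0 in some library. T and NK cell markers summed to at most 0.928 CPM, with Cd3e, Cd3d, Trac and Nkg7 each at 0 in some library. Oligodendrocyte markers (Mog at 0 in some library) summed to 98.4 to 135.7 CPM and endothelial markers to 16.3 to 52.8 CPM. Astrocyte markers (Aqp4 at 0 in some library) summed to 20.99 to 184 CPM. Their median was 108.6 CPM in young, 79.9 in young repopulated, 85.04 in old and 48.9 in old repopulated libraries. In old repopulated against young mice 4 of 8 microglial markers were called lower. In the same comparison 6 of 10 monocyte and neutrophil markers and 4 of 6 border-associated macrophage markers were called higher. Among markers of the other cell types, Mbp (oligodendrocyte, log2 difference 0.48) and Flt1 (endothelial, 1.16) were called higher. Pecam1 (endothelial, -1.56) and Rbfox3 (neuron, -2.15) were called lower. The part of these markers in the results below was not tested, and in bulk samples fewer cells of a type and less RNA per cell cannot be told apart.

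Reads of mt-Co3 were divided between the gene and its identical copy in very different ways from library to library. In old repopulated replicate 2 the table lists 227901 expected counts under mt-Co3 and 19111 under Gm28437, whereas in old repopulated replicate 1 it lists 5757 and 149689. The copy held 0.709 to 98.0% of the pair's counts, with a median of 82.5%. For mt-Atp6 the copy held 82.8 to 93.9%, for mt-Nd4l 8.35 to 66.7% and for mt-Co1 11.5 to 20.8%. For mt-Co2 the copy held 0 to 5.85%, for mt-Nd3 0 to 23.9%, and for mt-Nd4 0.874 to 12.4%. Added together, mt-Co3 and Gm28437 ranged only from 2102 to 4642 CPM, against 57.9 to 4282 CPM for mt-Co3 as deposited. The log2 difference of mt-Co3 between old repopulated and young mice was 0.99 as deposited and 0.01 with the copy added. For the 7 genes with a copy, values below are therefore sums with the copy, an alternative chosen after the data were seen, unless they are said to be as deposited; all counts of called mitochondrial members, and all medians over them, are as deposited, with joined medians named as such.

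**Figure D1:**
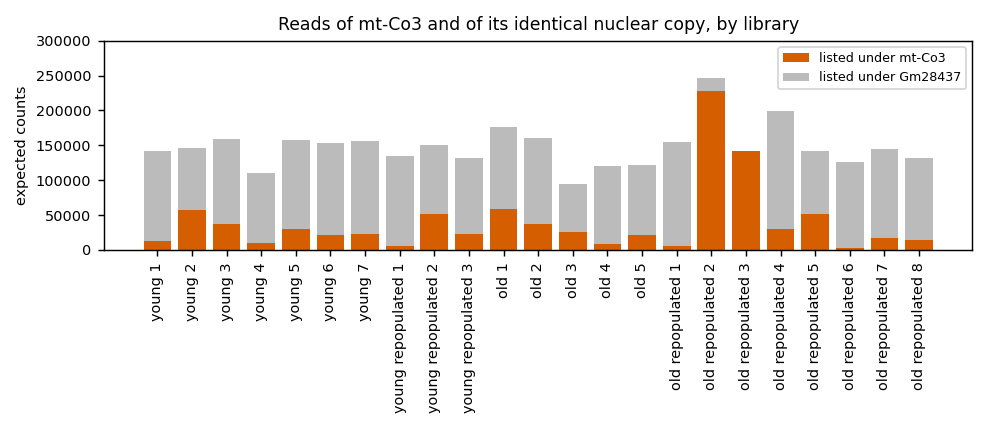
Expected counts listed under mt-Co3 (orange) and under its identical nuclear copy Gm28437 (grey) in each of the 23 libraries. The copy holds from 60.7 to 98.0% of the pair in the other libraries, but 7.74% in old repopulated replicate 2 and 0.709% in old repopulated replicate 3.

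Summed over all members, nuclear genes had their highest mean share of counts in old repopulated libraries, and mitochondrial genes theirs in young libraries. The nuclear set held 0.430 to 0.537% of counts in young mice (0.470% ± 0.0338, SD, n = 7), 0.455% ± 0.0228 in young repopulated (n = 3), 0.484% ± 0.0440 in old (n = 5) and 0.547% ± 0.0781 in old repopulated mice (n = 8). The mitochondrial set with its copies held 2.95% ± 0.262 in young, 2.50% ± 0.103 in young repopulated, 2.46% ± 0.341 in old and 2.62% ± 0.563 in old repopulated mice. The old repopulated libraries spread most widely, from 0.415 to 0.631% for the nuclear set and from 2.14 to 3.88% for the mitochondrial set, and every pair of groups overlapped in both shares.

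The balance of the 2 genomes, as the log2 ratio of mitochondrial to nuclear counts, was 2.65 ± 0.170 in young (SD, n = 7), 2.46 ± 0.0157 in young repopulated (n = 3), 2.34 ± 0.323 in old (n = 5) and 2.25 ± 0.352 in old repopulated mice (n = 8). Within library numbers 12 to 24 the 3 old repopulated libraries lay at 1.87, 2.11 and 1.92, below all 4 young libraries (2.44, 2.80, 2.78 and 2.51) and all 3 young repopulated libraries (2.45, 2.45 and 2.48). The 3 old libraries of this range lay at 1.86, 2.46 and 2.30, so old and old repopulated libraries overlapped, and the lowest old library was below every old repopulated one. Within numbers 1 to 11 the 5 old repopulated libraries lay at 2.74, 2.64, 2.28, 2.54 and 1.91 and overlapped the 3 young ones at 2.60, 2.88 and 2.53. The ratio was lower in old repopulated than in young mice on average in both ranges, by values of 1.97 against 2.63 in numbers 12 to 24 and 2.42 against 2.67 in numbers 1 to 11. These sums are a description and carry no test.

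**Figure D2:**
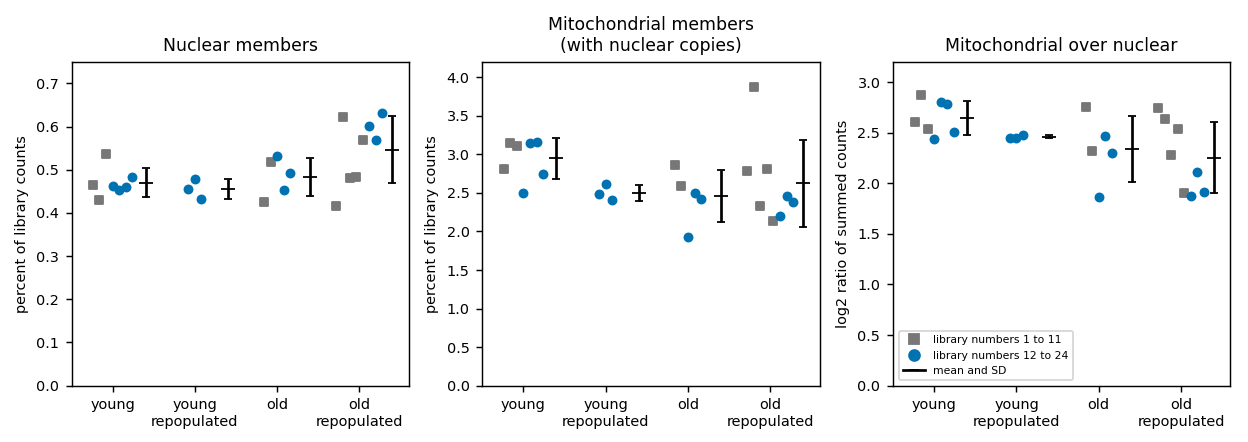
Percent of library counts in nuclear members (left) and in mitochondrial members with their nuclear copies (middle), and the log2 ratio of the latter to the former (right), in each library by group; squares are library numbers 1 to 11, circles 12 to 24, bars the mean and SD. The 3 old repopulated libraries of numbers 12 to 24 have a ratio of 1.87 to 2.11, below every young library.

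Old repopulated against young mice was the comparison with the most called members, and those of the nuclear genome were higher and those of the mitochondrial genome lower. In edgeR's quasi-likelihood test on all 23 libraries, with Benjamini-Hochberg adjustment over 18720 genes, 16 of 91 nuclear members rose and 0 fell, and 2 of 13 mitochondrial members fell and 0 rose. Of all genes tested, 9.29% rose and 5.92% fell. The median log2 difference was 0.25 over the 91 nuclear members and -0.20 over the 13 mitochondrial members (-0.19 with copies joined), against -0.02 over all genes. Unadjusted p-values were under 0.05 for 41 nuclear and 4 mitochondrial members, and for 30.5% of all genes. Nuclear and mitochondrial differences were both small: the 16 called nuclear rises ran from 0.21 to 0.51 on the log2 scale.

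The calls differed between the ranges of library numbers. Within numbers 12 to 24, 63 nuclear members rose and 3 fell (21.9% and 19.2% of all genes), and 8 mitochondrial members fell and 0 rose; medians were 0.36 and -0.41. Within numbers 1 to 11, with 5 old repopulated and 3 young libraries, no member was called, as for nearly all genes (0.0107% called), unadjusted p-values were under 0.05 for 3 nuclear and 1 mitochondrial members, and medians were 0.14 and -0.13 (-0.10 with copies joined). All 16 nuclear members called in the whole set were among the 63 and had a positive difference in numbers 1 to 11, with a median there of 0.23. These 16 were called on libraries of both ranges, so their place among the 63 and their sign in numbers 1 to 11 are no separate check. Of the 63, 52 had a positive difference in numbers 1 to 11, with a median of 0.15. The 3 that fell in numbers 12 to 24, named after their values were seen, were Cox7a2l (-0.37), Ndufaf7 (-0.37) and Atp5sl (-0.53).

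Single libraries moved the count of 16. It was 46 without old repopulated replicate 1, 2 without old repopulated replicate 6, 3 without replicate 8, 4 without replicate 2, 5 without replicate 5 and 10 without replicate 7 of that group. It was 7 without young replicate 1 or young replicate 2, 5 without young replicate 4, 8 without young replicate 5, 4 without young replicate 6, 10 without young replicate 7 and 9 without young repopulated replicate 3. The count of 2 mitochondrial members was 4 without old repopulated replicate 2 and 1 without young replicates 2, 3, 5, 6 or 7, any young repopulated replicate, old replicates 2 or 5, or old repopulated replicates 3, 5, 6, 7 or 8. The median of the nuclear members stayed between 0.14 and 0.36 and that of the mitochondrial members between -0.41 and -0.10 over the 36 alternatives run. The library number as a term gave 30 nuclear and 4 mitochondrial members, and voom with sample weights 58 and 8.

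**Figure D3:**
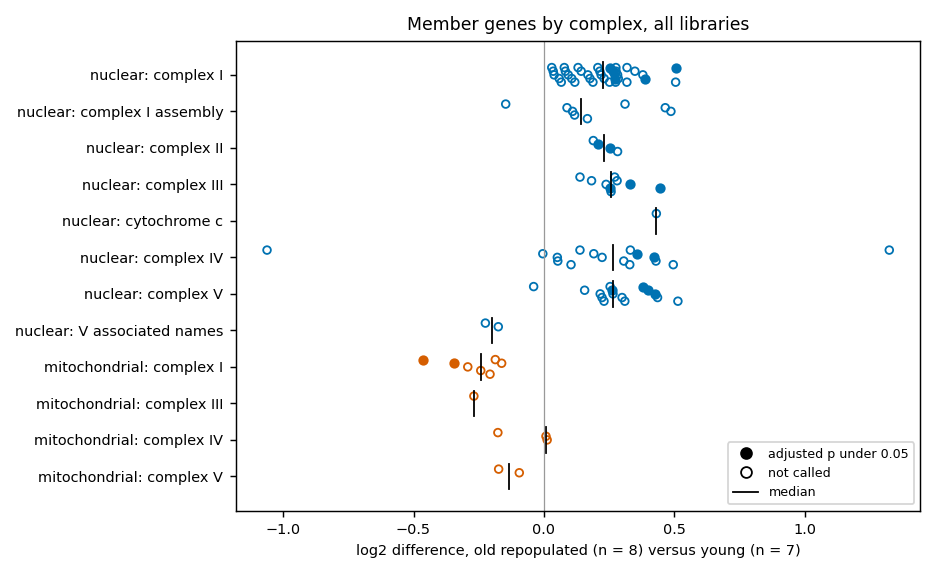
Log2 difference between old repopulated and young mice for each tested member, by genome and complex; filled points are called, black bars are medians, and mitochondrial genes are shown with their nuclear copies added. All 36 nuclear complex I subunits lie above 0, and 16 nuclear members are called higher and mt-Nd5 and mt-Nd6 lower.

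**Figure D4:**
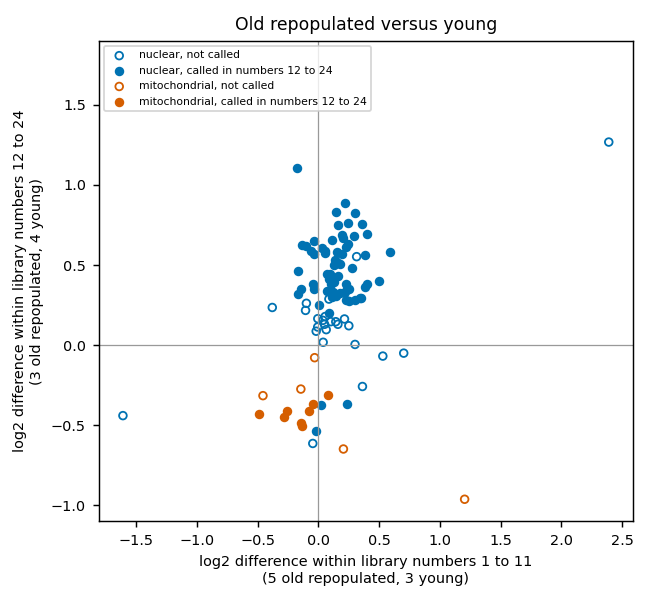
Log2 difference between old repopulated and young mice for each member as deposited, within library numbers 1 to 11 (horizontal) and 12 to 24 (vertical). The filled blue points are the 63 nuclear members called higher and the 3 called lower in numbers 12 to 24; the 63 have a median of 0.15 in numbers 1 to 11, and mt-Co3 lies at 1.20 and -0.96.

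Complex I, which takes electrons from NADH, had 5 called rises among 36 subunits, where 9.29% of all genes were called higher, and all 36 differences between old repopulated and young mice were above 0 (median 0.23). Ndufa12, an accessory subunit of the peripheral arm, had 14.5 to 19.5 CPM in young mice (median 18.2, n = 7), 21.7, 13.5 and 20.8 in young repopulated, 17.8, 23.4, 26.8, 19.6 and 24.0 in old, and 13.9 to 32.3 in old repopulated mice (median 26.0, n = 8). Old repopulated replicate 1 was the lowest library of its group at 13.9 and the other 7 lay above every young library. Ndufa12 rose by 0.51 ± 0.141 (log2, SE; edgeR adjusted p = 0.0187), the largest called nuclear rise, and was called in 34 of the 36 alternatives, with adjusted p from 0.000321 to 0.534. Ndufb8, in the membrane arm, had 39.9 to 48.4 CPM in young (median 46.6) and 37.8 to 76.9 in old repopulated mice (median 61.9), and rose by 0.39 ± 0.128 (edgeR adjusted p = 0.0437), a call lost in 19 of 36 alternatives. Ndufv1, the core subunit that binds NADH and the flavin, rose by 0.25, from 41.0 ± 4.18 CPM in young to 48.9 ± 4.96 in old repopulated mice, and Ndufa10 and Ndufb10 by 0.27 and 0.26. The core subunit Ndufs3 had a difference of 0.03 and did not pass. None of the 8 assembly factors was called (median 0.14); Ndufaf5 and Ndufaf8 had differences of 0.47 and 0.49 with edgeR adjusted p of 0.0502 and 0.0565.

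Complex II, which feeds electrons from succinate, had 2 of 4 subunits called higher, against 9.29% of all genes. Sdha, the flavoprotein that oxidises succinate, had 157 to 218 CPM in young (median 177) and 188 to 227 in old repopulated mice (median 206) and rose by 0.21 ± 0.0703 (edgeR adjusted p = 0.0478), a call lost in 20 of 36 alternatives, with adjusted p up to 0.719. Sdhd, a membrane anchor, had 57.6 to 63.6 CPM in young and 63.3 to 90.9 in old repopulated mice and rose by 0.25 ± 0.0810 (edgeR adjusted p = 0.0383), a call lost in 14 of 36. For Sdhd the 2 lowest old repopulated libraries, at 63.3 and 63.4 CPM, lay inside the young range and the other 6 above it. Sdhb, the iron-sulfur subunit, and Sdhc, the other anchor, had differences of 0.28 and 0.19 and did not pass.

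Complex III, which passes electrons to cytochrome c, had 3 of 9 nuclear subunits called higher (9.29% of all genes), and all 9 differences were above 0 (median 0.26). Cyc1, the cytochrome c1 subunit, had 34.9 to 45.7 CPM in young mice (median 42.4), 44.1, 44.8 and 36.3 in young repopulated, 37.3, 47.2, 56.6, 43.3 and 50.2 in old, and 41.0 to 66.9 in old repopulated mice (median 56.8). Again replicate 1 was the lowest old repopulated library and the only one inside the young range. Cyc1 rose by 0.44 ± 0.104 (edgeR adjusted p = 0.00676), the smallest adjusted p among nuclear members, and was called in 34 of 36 alternatives (adjusted p from 0.000192 to 0.448). Uqcr11, a small subunit, and Uqcrc2, a core subunit, rose by 0.33 and 0.25. Cycs, the cytochrome c that carries electrons on to complex IV, had 11.1 to 21.6 CPM in young and 9.51 to 35.7 in old repopulated mice, a difference of 0.43 ± 0.240 that did not pass (edgeR adjusted p = 0.233). Its difference was 1.10 within numbers 12 to 24 (edgeR adjusted p = 0.00493) and -0.17 within numbers 1 to 11 (adjusted p = 0.855).

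Complex IV, which reduces oxygen, had 2 called rises among its 16 tested nuclear members, a share near the 9.29% of all genes. Cox7a2, the widely expressed form of subunit 7a, had 29.2 to 40.8 CPM in young (median 31.1), 31.6, 33.2 and 29.0 in young repopulated, 30.0, 44.9, 44.2, 36.3 and 41.4 in old, and 27.7 to 54.5 in old repopulated mice (median 45.0). It rose by 0.42 ± 0.122 (edgeR adjusted p = 0.0231). Cox6b1, on the side where cytochrome c docks, had 62.6 to 97.9 CPM in young and 61.2 to 114 in old repopulated mice and rose by 0.36 ± 0.119 (edgeR adjusted p = 0.0440), a call lost in 18 of 36 alternatives. Cox4i1, the most abundant nuclear member of the complex per length, had a difference of 0.10 and did not pass. The widest nuclear differences were in scarce forms of this complex, Cox7a1 (1.32, from 0 to 0.909 CPM in young and 0.0612 to 2.73 in old repopulated mice) and Cox4i2 (-1.06, at most 0.774 CPM in young mice). Neither passed edgeR's test (adjusted p = 0.214 and 0.505).

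Complex V, the ATP synthase, had 4 called rises among 15 members (9.29% of all genes), and 14 of 15 differences were above 0 (median 0.26). Atp5b, the catalytic beta subunit, had 344 to 494 CPM in young (median 402) and 342 to 686 in old repopulated mice (median 561) and rose by 0.38 ± 0.120 (edgeR adjusted p = 0.0358), a call lost in 15 of 36 alternatives. Atp5g3, a source of the rotating c ring, had 67.2 to 80.7 CPM in young, 64.9, 58.7 and 59.9 in young repopulated, 66.6, 88.3, 103, 65.6 and 80.2 in old, and 62.0 to 122 in old repopulated mice (median 103), a rise of 0.40 ± 0.124 (edgeR adjusted p = 0.0332). Its 3 young repopulated libraries lay below all young ones. Atp5o, the stalk subunit that ties the catalytic head to the membrane part, rose by 0.42, and Atp5c1, the central shaft, by 0.26; their calls were lost in 10 and 21 of 36 alternatives. Within numbers 12 to 24, 14 of the 15 rose, with a median of 0.58, where 21.9% of all genes were called higher. Atp5s and Atp5sl, the latter also known as a complex I assembly factor, had differences of -0.22 and -0.17 and did not pass.

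**Figure D5:**
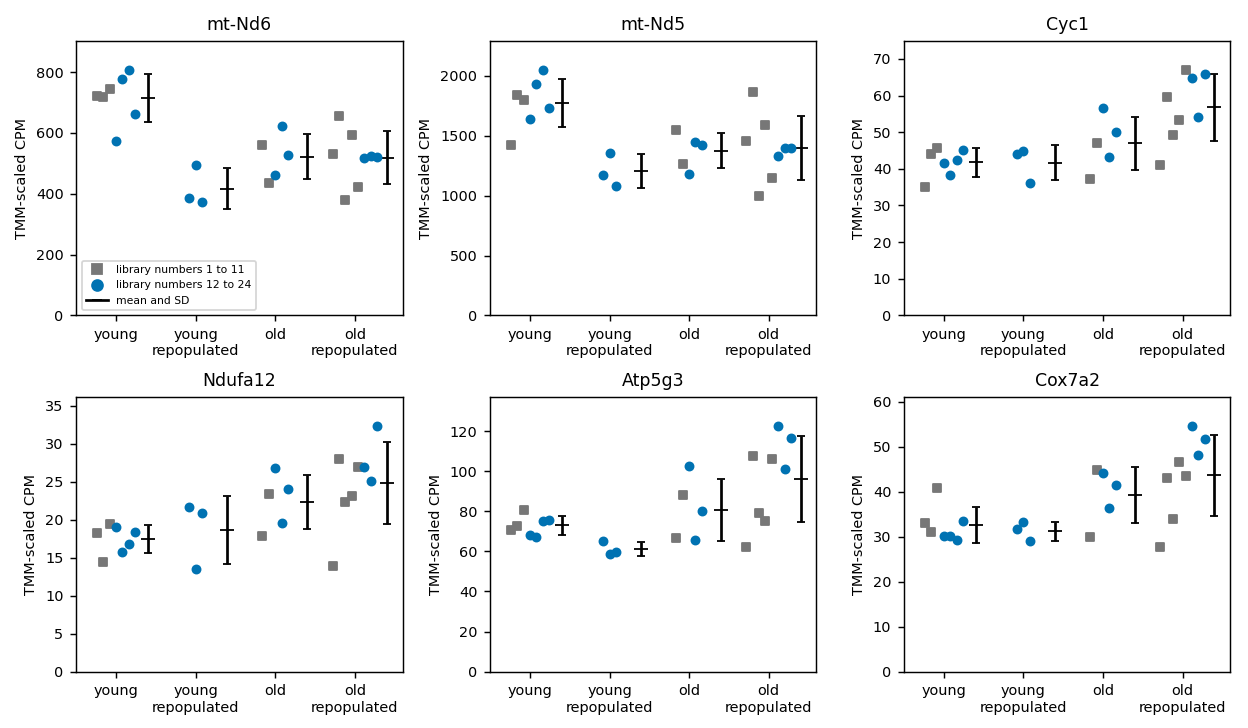
TMM-scaled CPM of 2 mitochondrial and 4 nuclear members in each library by group; squares are library numbers 1 to 11, circles 12 to 24, bars the mean and SD. For mt-Nd6 the 3 young repopulated libraries (373 to 493 CPM) lie below all 7 young ones (573 to 806 CPM), and for Cyc1 7 of 8 old repopulated libraries lie above every young one.

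Among the mitochondrial messengers the 2 called genes both encode complex I subunits. mt-Nd6 (chrM:13552-14070) is the only messenger on the minus strand of the mitochondrial genome and overlaps the end of mt-Nd5 (chrM:11742-13565), and whether strand was used in counting is not given in the sources used here. mt-Nd6 had 573 to 806 CPM in young (median 722), 385, 493 and 373 in young repopulated, 560, 436, 463, 623 and 529 in old, and 380 to 655 in old repopulated mice (median 523). In old repopulated mice it fell by 0.46 on the log2 scale (SE 0.110, edgeR adjusted p = 0.00735), and in young repopulated mice by 0.78 (SE 0.153, edgeR adjusted p = 0.0121), both against young mice, which the comparisons share. In old mice the difference from young was -0.45 and missed the threshold (edgeR adjusted p = 0.0524). mt-Nd6 was called in 34 of 36 alternatives against old repopulated mice (adjusted p from 0.000796 to 0.406) and in 32 of 34 against young repopulated mice (2.96e-05 to 0.109).

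mt-Nd5 had 1425 to 2049 CPM in young (median 1799), 1174, 1360 and 1078 in young repopulated, 1553, 1266, 1184, 1451 and 1426 in old, and 998 to 1870 in old repopulated mice (median 1398). It fell by 0.34 in old repopulated mice (SE 0.113, edgeR adjusted p = 0.0419), a call kept in 15 of 36 alternatives (adjusted p from 0.000927 to 0.692). The young repopulated libraries did not overlap the young ones for mt-Nd5 (difference -0.56, edgeR adjusted p = 0.0741). The remaining mitochondrial messengers did not pass in the fit of all libraries. With copies added, mt-Cytb, the catalytic core of complex III, differed by -0.27 between old repopulated and young mice, and the complex IV genes mt-Co1, mt-Co2 and mt-Co3 by -0.18, 0.01 and 0.01. The complex V genes mt-Atp6 and mt-Atp8 differed by -0.09 and -0.17, and the other complex I genes mt-Nd1, mt-Nd2, mt-Nd3, mt-Nd4 and mt-Nd4l by -0.16, -0.24, -0.29, -0.19 and -0.21. Among the 6 genes with no annotated copy all 6 differences were below 0 (median -0.26). Within numbers 12 to 24 all 6 fell, where 19.2% of all genes were called lower. Within numbers 1 to 11 the count called was 0 (0.0107% of all genes), and 5 of the 6 were below 0 (median -0.14).

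Old against young mice, with no repopulation, showed 0 of 91 nuclear and 0 of 13 mitochondrial members called by edgeR (2.83% of all genes). Unadjusted p-values were under 0.05 for 2 nuclear members, Ndufa12 (0.36) and Cox6b2 (0.82), and 6 mitochondrial ones (15.3% of all genes); DESeq2 called 1 mitochondrial member. In this comparison 5 of 10 monocyte and neutrophil markers and 2 of 6 border-associated macrophage markers were called higher and 1 of 8 microglial markers, Fcrls, lower. The endothelial marker Flt1 was also called higher (1.01). The part of these markers in the member values was not tested. Medians were 0.06 and -0.32, and 12 of 13 mitochondrial differences were below 0 as deposited. With its copy added, mt-Co1 had 7094 to 8939 CPM in young (median 8811) and 6925, 6572, 6067, 6876 and 6649 in old mice. All 5 old libraries lay below all young ones, and the difference of -0.34 did not pass (edgeR adjusted p = 0.178). Within numbers 12 to 24, 6 mitochondrial members fell, 3 nuclear members rose (Cox7c, Cox7a2 and Ndufb9) and 1 fell (Cox7a2l), against 15.7% of all genes called. Within numbers 1 to 11 none was called (0.00533% of all genes), and medians were -0.03 and -0.19.

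Repopulation in old mice, old repopulated against old, gave 0 called nuclear and 0 called mitochondrial members in all libraries (0.278% of all genes, edgeR). Unadjusted p-values were under 0.05 for 20 nuclear and 0 mitochondrial members (10.4% of all genes), and DESeq2 called 0 of either. The medians were 0.18 and 0.08, and all 36 nuclear complex I subunits and all 9 nuclear complex III subunits had differences above 0. Within numbers 12 to 24, 18 nuclear members rose, from Uqcrfs1 at 0.26 to Ndufc1 at 0.61, and 1, Cox6a2, fell (-1.19), against 12.7% of all genes called. Atp5a1, Atp5b, Atp5c1, Atp5e, Atp5f1, Atp5g3, Atp5k and Atp5o of complex V were among the 18. Within numbers 1 to 11 none was called, nor was any gene (0.0%), and medians were 0.16 and 0.09 (0.059 with copies joined).

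Repopulation in young mice gave 0 called nuclear members and 1 mitochondrial member, mt-Nd6, which fell (1.34% of all genes, edgeR). Unadjusted p-values were under 0.05 for 4 nuclear and 3 mitochondrial members (15.1% of all genes), and medians were -0.05 and -0.25 (-0.20 with copies joined). Without young repopulated replicate 1 or replicate 3 the count of mitochondrial members was 0, and without old repopulated replicate 2 it was 2. Among cell type markers, Ms4a7 (border-associated macrophage, 2.47) and Flt1 (endothelial, 1.11) were called higher and Pecam1 (endothelial, -1.94) lower. All 10 monocyte and neutrophil markers were above 0 (median 1.40) with 0 called, and 0 of 8 microglial markers were called (median -0.27). The part of these markers in the member values was not tested. Ndufa4, a subunit assigned to complex IV, had 41.4 to 53.0 CPM in young and 38.0, 30.3 and 31.1 in young repopulated mice, so the groups did not overlap, with a difference of -0.49 that did not pass (edgeR adjusted p = 0.155). All 3 young repopulated libraries carry numbers 22 to 24, so only numbers 12 to 24 allow this comparison within a range. There, mt-Nd6 (-0.72), mt-Nd5 (-0.58) and Ndufa4 (-0.53) fell and Cox8a (0.29) and Cox7a2l (0.38) rose, against 9.3% of all genes called.

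Old repopulated against young repopulated mice gave 0 called members, as for all genes (0.0%), although unadjusted p-values were under 0.05 for 36 nuclear and 1 mitochondrial members (11.7% of all genes) and DESeq2 called 1 nuclear member. Medians were 0.28 and 0.12 (0.055 with copies joined). Within numbers 12 to 24, 55 nuclear members rose and 3 fell (Atp5s, Cox7a2l and Atp5sl) and no mitochondrial member was called, against 36.3% of all genes called. The test of whether repopulation acted differently in old and young mice called 0 members, as for all genes (0.0%), with unadjusted p-values under 0.05 for 10 nuclear and 3 mitochondrial members (8.24% of all genes). DESeq2 called 0 there. The medians of this interaction were 0.24 and 0.34. Within numbers 12 to 24, 12 nuclear members had a called interaction above 0, from Ndufs1 at 0.49 to Ndufc1 at 1.09, and so had mt-Nd5 (0.60), against 8.87% of all genes called.

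Levels per length, as deposited TPM (counts divided by transcript length and scaled to the same sum in every library), show which subunit forms microglia used. Cox4i1 ranged from 546 to 835 TPM over the 23 libraries and Cox4i2, a form known from lung, from 0 to 1.99 TPM. Cox6a1, the form of most tissues, ranged from 146 to 253 TPM and Cox6a2, the heart and muscle form, from 3.90 to 25.5. Cox7a2 ranged from 106 to 204 TPM against 0 to 13.7 for the muscle form Cox7a1, and Cox6b1 from 252 to 438 against 1.46 to 7.59 for Cox6b2, a form known from testis. Cox8a ranged from 158 to 225 TPM, Cox8b had counts in 2 libraries only, and Cox8c and Cox7b2 were at 0 in all 23. In each of these pairs with counts for both forms, the lowest library of the main form lay above the highest of the other. Of the 3 genes for the same c-ring protein, Atp5g3 had 142 to 300 TPM, Atp5g1 33.0 to 122 and Atp5g2 0.430 to 45.1. Cox7a2l had 222 to 446 TPM.

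Among members that passed the filter on low counts, the most abundant nuclear ones per length of complexes II to V, averaged over all libraries, were Sdhc (120 TPM) for complex II, Uqcrh (320 TPM) for complex III, Cox4i1 (669 TPM) for complex IV and Atp5b (464 TPM) for complex V. The lowest that passed were Sdhd (92.5 TPM), Cyc1 (69.6 TPM), Cox4i2 (0.402 TPM) and Atp5g2 (16.7 TPM), and Ndufa11 (10.2 TPM) was the lowest of complex I. Cycs averaged 10.2 TPM.

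Genes that control or serve the pathway from outside the rule were counted from lists in old repopulated against young mice, where 9.29% of all genes were called higher and 5.92% lower. None of 8 regulators of mitochondrial biogenesis, among them Ppargc1a, Nrf1, Esrra and Tfam, was called (median 0.03), nor was any of 12 genes of mitochondrial DNA replication and transcription (median -0.04). Of 14 tested genes of mitochondrial RNA stability and processing, 2 rose: Hsd17b10, part of mitochondrial RNase P, by 0.47 and Tbrg4 by 0.38 (median 0.09). Of 37 assembly factors outside the rule, Cox17, a copper carrier for complex IV, rose by 0.56 and Foxred1, a complex I factor, fell by 0.29 (median 0.10). Of 17 citrate cycle and pyruvate dehydrogenase genes, 6 rose and 1 fell (median 0.19): Mdh2 by 0.54, Idh3a by 0.50, Dlat by 0.45, Fh1 by 0.41, Sucla2 and Cs by 0.37 each, and Suclg2 fell by 0.37. None of the genes on these 5 lists was called in the other comparisons. A list followed for RNA quality, with mt-Rnr1, mt-Rnr2 and Malat1 on it, had 0 of 7 tested genes called in every comparison. Its median was -0.69 for old, -0.91 for young repopulated and -0.45 for old repopulated mice, each against young. It was 0.06 for old repopulated against old mice, 0.75 against young repopulated mice and 1.14 for the interaction. The part of these RNAs in the member values was not tested.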

How the data were processed

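Poly(A) RNA was sequenced from microglia in 23 libraries as single reads of 50 nt from 2.4 to 147 ng of RNA, per the labels' protocols. The authors deposited RSEM expected counts, estimates that need not be whole, and TPM per gene; FastQC 0.11.5, STAR, RSEM, limma and GRCm38 are named in the submitters' processing notes. Within 1e-06, 87.26% of the expected counts were whole; all were rounded before testing. Genes kept by filterByExpr (18720) were scaled by TMM and tested in edgeR 4.0.16 (R 4.3.3; glmQLFit, glmQLFTest) with 1 coefficient per group over 23 libraries, for 6 comparisons, calling genes whose p, after Benjamini-Hochberg adjustment, was under 0.05. The labels do not say whether each library is a separate animal, so p-values measure the spread between libraries. Deposited TPM values were used only to compare levels between genes. BLAST 2.17.0 against GENCODE M21 transcripts found nuclear copies (at least 99% identity over 200 bases).

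Genes were named by rule: all mitochondrial messengers, complex II, Cyc1, Cycs, paired isoforms, the highest and lowest member by TPM of each complex, and up to 6 called members with the largest change per direction and comparison; others were chosen after their values were seen. The members, lists and tests were chosen with earlier results of these data known. Alternatives were RLE factors, TMM without the mitochondrial genome, no filter, DESeq2 1.42.0, voom with sample weights (limma 3.58.1), a fit of just the compared groups, a term for library number, fits within each number range and leaving out each library. Chosen after the data were seen were joining copies to their mitochondrial genes, also within ranges, and leaving out young replicate 3 and old repopulated replicate 2 together. The fit was checked on simulated counts. Values of 1 member are not reported here. Sequences are from RefSeq (GRCm38.p6) and GENCODE M21.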

Additional observations from a re-analysis of the deposited data

Results flagged for a closer look

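A library far from the rest of its group was found in 19 of 159 group values tested, where chance gives about 1 in 20 for a single value. The 159 values are not independent, since some were taken both as deposited and with copies and all come from the same 23 libraries. The 19 are therefore not separate findings and cannot be held against that rate. Of these, 9 were in old repopulated replicate 2, all high: mt-Co1 as deposited (8731 CPM, others up to 6524) and with its copy (10840), mt-Co2 as deposited (4005 CPM, others up to 2852) and with its copy (4006), mt-Nd3 as deposited (293 CPM), mt-Atp6 with its copy (5966 CPM), Cox6b2 (1.86 CPM), and the mitochondrial share of counts as deposited (3.04%) and with copies (3.88%). Another 8 were in young replicate 3: Sdhb (82.0 CPM, others up to 71.2), Cox4i1 (339), Cox6a1 (87.2), Cox6b1 (97.9), Cox7a2 (40.8), Ndufa11 (18.4) and Atp5o (72.3) were high and Ndufaf3 (6.45, others from 10.2) was low. The other two were mt-Cytb in old replicate 3 (1453 CPM, others from 2101) and Cox6b1 in old repopulated replicate 1 (61.2 CPM, others from 89.2), both low. With young replicate 3 and old repopulated replicate 2 both left out, 17 nuclear members were called higher and 3 mitochondrial members lower in old repopulated against young mice.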

How the results depend on the processing

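None of the 19 gene results called with all libraries reversed its direction under an alternative, and 464 of their values kept the call while 218 lost it. Counts of called members moved by more than 1.5 times as follows. Voom with sample weights gave 4 nuclear and 5 mitochondrial members for old against young, 1 nuclear for old repopulated against old, 7 and 3 for young repopulated against young, 58 and 8 for old repopulated against young, 49 nuclear for old repopulated against young repopulated, and 1 and 2 for the interaction. In the same order, numbers 12 to 24 gave 4 and 6, 19 nuclear, 3 and 2, 66 and 8, 58 nuclear, and 12 and 1, and with copies joined 3 and 7, 17 nuclear, 2 and 2, 63 and 8, 58 nuclear, and 13 and 1. Numbers 1 to 11, with copies joined or not, gave 0 and 0 for old repopulated against young. DESeq2 gave 1 mitochondrial for old against young, 2 mitochondrial for young repopulated against young and 1 nuclear for old repopulated against young repopulated. Only the groups compared gave 1 mitochondrial for old against young, and 2 and 3 for young repopulated against young. The range of library numbers as a term gave 1 nuclear for young repopulated against young, 30 and 4 for old repopulated against young, and 12 nuclear for old repopulated against young repopulated. No filter gave 5 and 1 for old repopulated against young. Leaving out the 2 far libraries gave 2 mitochondrial for young repopulated against young. Leaving out 1 library at a time gave 2 to 46 nuclear and 1 to 4 mitochondrial for old repopulated against young, 0 to 1 mitochondrial for old against young and 0 to 2 mitochondrial for young repopulated against young. The cause of these moves was not tested. The median of nuclear members for old against young was -0.03 in numbers 1 to 11. The median of mitochondrial members for old repopulated against old was -0.01 without old replicate 3. For old repopulated against young repopulated it was -0.01 with voom, -0.07 with the range of library numbers as a term, and -0.18 and -0.11 in numbers 12 to 24 without and with copies joined. No paired analysis was possible because the labels carry no replicate numbers; those used here only name libraries and tie none together. Reads of 50 nt cannot separate identical copies.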
